A study of Mus musculus with 9 samples.

Results

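The response of the mouse salivary gland epithelial cell line mSGc to its culture medium was examined at the 2 passages whose RNA had been sequenced in both media. The comparison takes 4 of the 9 libraries of the series, namely P10 and P25 in serum containing medium (SCM) and P10 and P25 in serum free medium (SFM), with 1 library for each medium at each passage. The cells arose by spontaneous immortalization from submandibular glands of male C57BL/6 mice aged 12 weeks, so all 4 libraries share 1 line and 1 genotype. The deposited labels name a progenitor and a differentiating medium, which were taken here as SFM and SCM from the published description of the media. They call P10 mid and P25 late passage. SFM has no serum and carries epidermal growth factor, fibroblast growth factor, N2 supplement, insulin and dexamethasone. What the N2 supplement holds is not given in the sources used here, so components listed next for SCM may also be in SFM. SCM carries fetal bovine serum, retinoic acid, a higher dose of epidermal growth factor, triiodothyronine, hydrocortisone, insulin, transferrin and selenite. The media therefore differ in many components at once, and the part of each component cannot be told apart. How long the cells had been kept in SCM is not given in the sources used here. SFM libraries of P2 and P4, which have no SCM partner, are shown beside the results where they bear on them, and 3 libraries of immortalized mouse oral keratinocytes (IMOK) entered 1 alternative fit. The 2 passages stand in for replicates, and nothing in the labels says that they are separate cultures beyond that. The p-values of the comparison of media therefore measure how far the medium difference disagreed between the 2 passages, with information borrowed from other genes. They do not measure the variation between separate cultures.

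Salivary gland epithelium holds secretory acini, ducts lined by luminal cells on a basal layer, and contractile myoepithelial cells. Basal cells make keratins 5 and 14, while the simple keratins 7, 8, 18 and 19 mark luminal cells of the ducts. Retinoic acid acts through nuclear receptors that bind pairs of short repeats in DNA, one form of which is a direct repeat spaced by 5 bases (DR5). Serum is a source of growth factors, lipids and ligands of the bone morphogenetic protein (BMP) and transforming growth factor (TGF) beta families, and Id genes are the textbook targets of BMP signalling.

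Promoters of genes with large differences are shown first, as annotated by RefSeq in the build GRCm38.p6, from 250 bases before to 50 bases after the start site. Of the 90 genes that were called higher in SCM, 60 had a promoter in this table (92 promoters), as had 24 of the 33 called lower (25 promoters). Both strands were searched for 10 motifs. Those spelled out are AGGTCA, which is 1 element of a nuclear receptor repeat, and GGCGCC, a motif rich in G and C. The TATA box was searched as TATAAA and the AP-1 site as TGANTCA. A grainyhead site was taken as AACCGGTT, an ETS site as CCGGAAG, and a sterol response element as TCACNCCAC. DR5, the direct repeat spaced by 1 base (DR1) and the CArG box of serum response factor completed the set. The AGGTCA motif can overlap DR5 and DR1. The promoters printed are of the rises Gabrp (chr11:33578908-33579207, minus strand) and Ppbp (chr5:90768268-90768567, plus strand) and of the falls Pdzrn4 (chr15:92396560-92396859, plus strand) and Nradd (chr9:110624344-110624643, minus strand), and capitals mark every match to a searched motif.
Gabrp: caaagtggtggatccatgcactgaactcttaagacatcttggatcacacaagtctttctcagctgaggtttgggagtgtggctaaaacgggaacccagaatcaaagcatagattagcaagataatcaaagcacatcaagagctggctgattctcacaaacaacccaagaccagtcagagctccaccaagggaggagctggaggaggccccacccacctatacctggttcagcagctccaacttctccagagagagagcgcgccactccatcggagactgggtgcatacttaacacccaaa
Ppbp: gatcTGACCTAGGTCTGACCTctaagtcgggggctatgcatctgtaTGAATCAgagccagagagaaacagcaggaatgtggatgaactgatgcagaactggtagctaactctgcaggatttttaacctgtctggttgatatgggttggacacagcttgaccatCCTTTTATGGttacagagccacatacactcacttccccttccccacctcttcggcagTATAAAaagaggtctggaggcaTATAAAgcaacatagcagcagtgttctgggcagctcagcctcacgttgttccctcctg
Pdzrn4: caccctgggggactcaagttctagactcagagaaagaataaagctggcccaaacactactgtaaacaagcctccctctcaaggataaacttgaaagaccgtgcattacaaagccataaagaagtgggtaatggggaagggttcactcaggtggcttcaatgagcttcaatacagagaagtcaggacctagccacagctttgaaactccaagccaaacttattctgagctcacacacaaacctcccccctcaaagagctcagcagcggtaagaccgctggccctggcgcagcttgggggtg
Nradd: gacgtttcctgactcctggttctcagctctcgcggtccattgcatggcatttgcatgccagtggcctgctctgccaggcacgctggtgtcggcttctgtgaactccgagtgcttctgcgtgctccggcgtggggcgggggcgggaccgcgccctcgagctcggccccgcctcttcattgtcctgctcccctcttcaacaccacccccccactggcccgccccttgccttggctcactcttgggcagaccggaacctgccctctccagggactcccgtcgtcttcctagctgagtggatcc
Only the Ppbp sequence among these 4 held a match. It has a DR5 on the minus strand starting at position -246 from the start site, an AP-1 site at -204, a CArG box at -87 and TATA boxes at -30 and -8.

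A DR5 was found in 3 of the 11408 promoters of tested genes (0.0263%), and 2 of these 3 belong to genes called higher in SCM, Ppbp and Prss27. The third belongs to Blvrb, which encodes a biliverdin reductase and was not called (log2 fold change -0.47, edgeR quasi-likelihood adjusted p = 0.668). The repeats, with the 2 elements in capitals, lie at chr5:90768268-90768294 for Ppbp, chr17:24038088-24038116 for Prss27 and chr7:27452393-27452421 for Blvrb (GRCm38.p6, plus strand).
Ppbp: gatcTGACCTaggtcTGACCTctaagt
Prss27: ccctggAGTTCAgggccGGGTCAtagagt
Blvrb: aaccttTGAACTggcttTGAACTcataga
Prss27, a serine protease of squamous epithelia, was at 1.51 TPM at P10 and 0.205 TPM at P25 in SFM, and at 33.0 and 2.49 TPM in SCM. In all 32851 promoters of the table a DR5 was present in 32 (0.0974%). Among promoters of genes called higher, 15.2% held TATAAA, 14.1% the AP-1 site and 2.17% the ETS site, beside 7.08%, 5.36% and 17.6% of the promoters of all tested genes. Among those of genes called lower, 28.0% held GGCGCC and 8.0% TATAAA, beside 21.3% and 7.08%. For AGGTCA the shares were 14.1% for genes called higher and 4.0% for genes called lower, beside 12.1%. All these shares count promoters, so a gene with several promoters counts more than once. AACCGGTT and the sterol response element had no match in the promoters of called genes. A match describes the letters in this window and was not tested as a binding site.

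Levels are given in TPM (transcripts scaled to the same total in each library), which corrects for gene length and depth, and differences as log2 of CPM (counts scaled to the library total) in SCM over SFM. The 4 libraries held between 6237884 counts (P25 in SCM) and 15438288 counts (P25 in SFM), and 3 counts, the most that a count of 0 allows, correspond to 0.194 to 0.481 CPM. Such limits cover counting error only. The ribosomal precursor Rn45s took 0.133% of the counts at P10 in SFM and 0.332% to 0.431% in the other 3 libraries. The cells carried the basal keratin transcripts of an epithelium in every library (Krt5 2559 to 9386 TPM, Krt14 4728 to 9091 TPM), and Epcam, an epithelial adhesion gene, was at 307.2 to 477.7 TPM. The 12 endothelial and immune markers summed to between 0.112 and 1.05 TPM, none passed the filter on low counts, and Cd3e, Cdh5, Emcn and Emr1 were listed at 0 in all 4 libraries. Of 17 acinar markers measured, 6 passed the filter, and the list summed to 68.3 to 148.3 TPM, most of it from the ion transport genes Slc12a2 (11.7 to 64.6 TPM) and Ano1 (27.4 to 47.9 TPM), with Aqp5 at 1.40 to 20.9 TPM. Smgc, Dcpp2, Bpifa2 and Sox10 were listed at 0 in these 4 libraries, with Bhlha15 at no more than 0.0673 TPM.

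SCM raised a set of luminal keratin, junction, ion channel and secreted protein genes at both passages and lowered a smaller set that included protease inhibitor, signalling and retinoid binding genes. With passage as a block, 90 of 11938 tested genes (0.754%) were higher and 33 (0.276%) lower in SCM at an adjusted p under 0.05 in edgeR's quasi-likelihood test, and 1404 genes had an unadjusted p under 0.05. The fitted folds ran from 2.43 to 255.6 among the rises and from 2.77 to 54.9 among the falls. Fold changes had the same sign at P10 and P25 for 122 of the 123 called genes, which the fit favours, since a gene whose passages disagree gets a large error. The exception was Hp, the haemoglobin binding plasma protein haptoglobin, with 50 counts in SFM and 2902 in SCM at P10 but 1 and 0 counts at P25, which DESeq2 did not call (adjusted p = 0.997). Of the called genes 21 had 3 or fewer counts in a library, and the fitted change of such a gene depends on the prior count. None of the 123 was called when passage was left out of the fit, although all kept their direction there and 93 had an unadjusted p under 0.05. With the 2 early SFM libraries added 2 of the 123 were called, and with all 9 libraries none was, again with all directions kept.

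**Figure D1:**
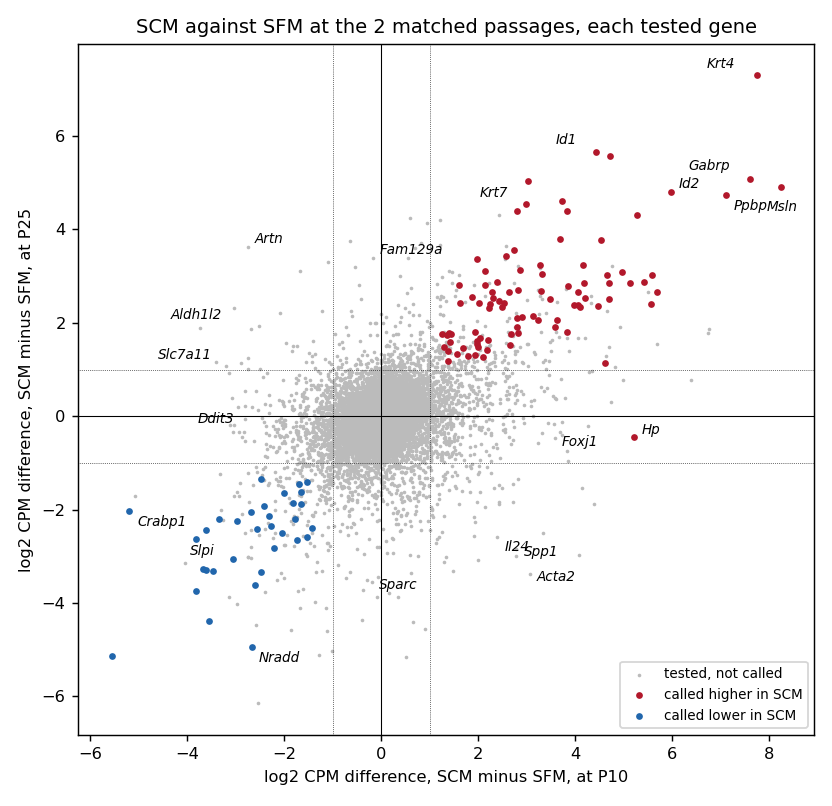
Each point is 1 of the 11938 tested genes, with the log2 CPM difference between SCM and SFM at P10 on the horizontal and at P25 on the vertical axis. Red points are the 90 genes called higher and blue points the 33 called lower in SCM, dotted lines mark 2-fold, and all called genes other than Hp lie at the upper right or the lower left.

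The largest rise was that of Krt4, the keratin of non-cornified stratified epithelium (mm9 chr15:101748966-101755166). It was at 0.204 TPM at P10 and 0.386 TPM at P25 in SFM, and at 88.2 and 94.8 TPM in SCM. The media did not overlap, and the 2 SCM libraries lay close together. The counts behind these were 2 and 1191 at P10, a ratio of 396.1 in CPM with a 95% counting interval of 109.4 to 3275, and 7 and 635 at P25, a ratio of 217.7 (105.0 to 543.6). Its fitted log2 fold change was 8.0 ± 0.36 (SE) with an adjusted p of 0.00144 (edgeR). Its partner Krt13 rose less, from 34.4 to 179.1 TPM at P10 and from 15.5 to 94.3 TPM at P25 (log2 fold change 2.34 ± 0.23, adjusted p = 0.00942, edgeR).

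Gabrp, a subunit of an epithelial GABA-gated chloride channel (mm9 chr11:33450781-33478957), came next. It rose from 0.530 to 136.8 TPM at P10 and from 0.215 to 11.7 TPM at P25. The level reached in SCM was over 10 times higher at P10, while both SFM libraries were under 1 TPM. Ppbp, the platelet basic protein chemokine, was at 0.403 and 0.545 TPM in SFM, and at 111.9 TPM at P10 and 24.8 TPM at P25 in SCM. Msln, the cell surface protein mesothelin, went from 0.206 to 125.0 TPM and from 2.95 to 104.0 TPM. With 2 counts behind its SFM level at P10, the Msln ratio there was 556.5 with a counting interval of 153.8 to 4599, and at P25 it was 31.3 (23.6 to 42.2). The fitted log2 fold changes of these 3 genes were 7.02 ± 0.51, 6.50 ± 0.59 and 6.03 ± 0.69 in the order given, with adjusted p of 0.00475, 0.00753 and 0.0162 (edgeR).

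Inhibitors of helix-loop-helix transcription factors rose strongly. Id2 was at 1.03 and 1.20 TPM in SFM at P10 and P25, and at 90.0 and 45.6 TPM in SCM. Id1 was at 1.67 and 0.129 TPM in SFM and at 48.2 and 26.9 TPM in SCM. For both genes each SCM library was over 10 times either SFM library. The log2 fold changes were 5.60 ± 0.41 for Id2 and 5.55 ± 0.66 for Id1 (edgeR, adjusted p = 0.00475 and 0.0171), the second resting on 1 count at P25 in SFM. Id3 went from 4.79 to 34.7 TPM at P10 and from 14.6 to 55.5 TPM at P25 and missed the threshold (adjusted p = 0.0631, edgeR). Tgfb3, a TGF beta ligand, rose from 7.19 to 35.1 TPM and from 1.18 to 12.3 TPM. Of 18 tested members of the TGF beta and BMP list, Id1, Id2 and Tgfb3 rose and none fell, beside 0.754% and 0.276% of all tested genes. The list's median log2 fold change was 0.85, beside 0.007 over all tested genes. Bmp7, a BMP ligand, had log2 differences of -1.32 at P10 and -1.88 at P25 and was not called (adjusted p = 0.0538, edgeR). Tgfbi, a matrix protein induced by TGF beta, was at 8.52 and 16.8 TPM in SFM and at 12.7 and 28.3 TPM in SCM.

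**Figure D2:**
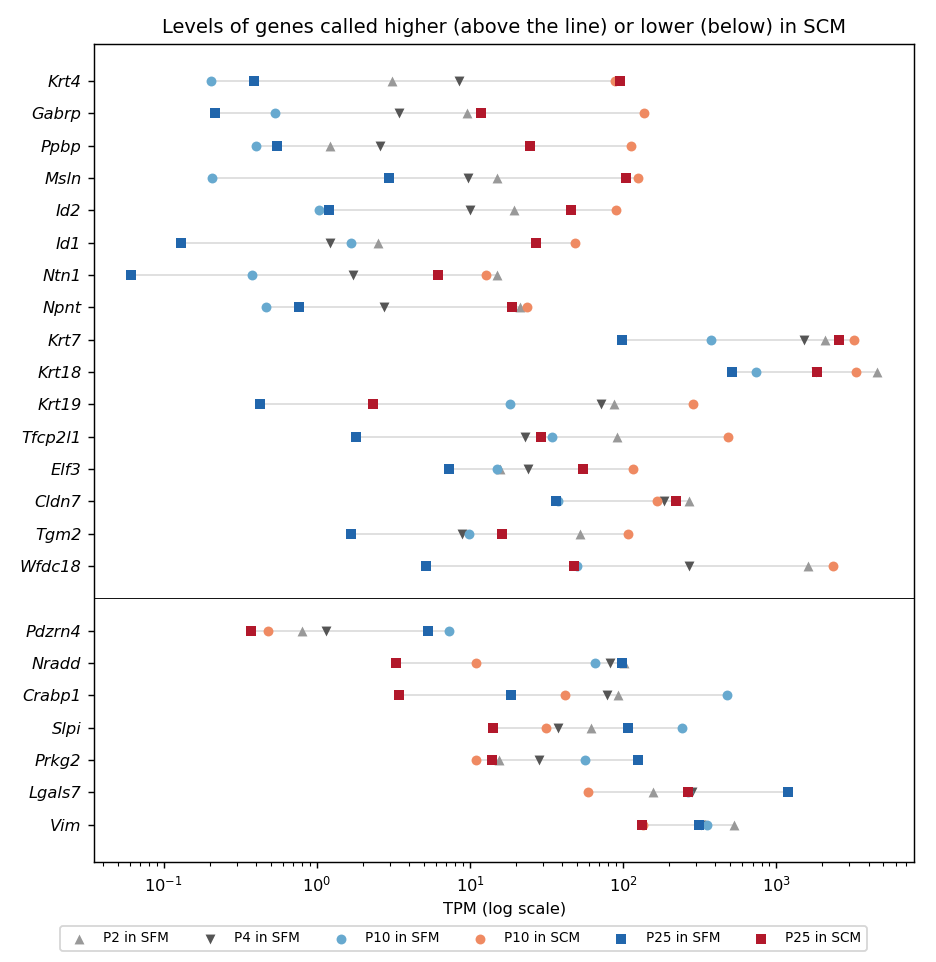
The level of selected genes in each mSGc library is plotted in TPM on a log scale, with genes called higher in SCM above the line and genes called lower below it. The SCM libraries (orange and red) lie to the right of the SFM libraries of the same passage (blue) above the line and to the left below it, and the SFM libraries of P2 and P4 (grey) often lie between them.

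Luminal and ductal genes formed the group with the most rises, among lists chosen with earlier results of these data known. Of 16 tested members 7 rose and none fell, 13 had an unadjusted p under 0.05, and the median log2 fold change was 1.76. Over all 11938 tested genes 0.754% rose, 0.276% fell and 1404 had an unadjusted p under 0.05 (edgeR). These shares also stand beside the counts of the lists below. Krt7 was at 371.9 TPM at P10 and 97.8 TPM at P25 in SFM, and at 3232 and 2576 TPM in SCM. Krt18 rose from 737.8 to 3299 TPM at P10 and from 516.3 to 1847 TPM at P25. Its partner in simple filaments, Krt8, went from 672.1 to 3743 TPM and from 1172 to 2154 TPM, and with log2 differences of 2.35 and 0.70 it was not called (adjusted p = 0.211, edgeR). Krt19 rose from 18.2 to 287.4 TPM at P10, while at P25 it was at 0.428 TPM in SFM and 2.32 TPM in SCM, on 5 and 10 counts. Fitted log2 fold changes were 3.77 ± 0.44 for Krt7, 1.85 ± 0.26 for Krt18 and 3.57 ± 0.39 for Krt19 (edgeR, adjusted p = 0.0163, 0.0318 and 0.0157).

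The other called members of this list were the transcription factors Tfcp2l1, Elf3 and Ehf and the junction gene Cldn7. Tfcp2l1, a grainyhead family factor of ducts and kidney tubules, was at 34.3 TPM at P10 and 1.81 TPM at P25 in SFM, and at 483.8 and 29.1 TPM in SCM. The fold was alike at the 2 passages (log2 difference 3.69 and 3.80) although the level differed by more than 10 times, and the log2 fold change was 3.76 ± 0.26 (edgeR, adjusted p = 0.00475). The epithelial ETS factor Elf3 rose from 15.0 to 116.6 TPM and from 7.29 to 54.9 TPM. A second ETS factor, Ehf, rose from 24.8 to 146.0 TPM at P10 and from 0.268 to 2.03 TPM at P25. Foxa1, a forkhead factor of glandular epithelia outside that list, rose from 7.03 to 30.9 TPM and from 7.05 to 22.5 TPM. The tight junction gene Cldn7 rose from 37.4 to 165.6 TPM and from 36.3 to 221.4 TPM. Cldn4 had log2 differences of 2.14 and 1.17 and was not called (adjusted p = 0.0599, edgeR), nor were Grhl1 (1.55 and 2.71, adjusted p = 0.0562) and the progenitor marker Prom1 (0.66 and 1.35, adjusted p = 0.414). Further called rises, named after their values were seen, were the junction genes Marveld2 (log2 fold change 1.39) and Tjp3 (2.85). Kit, Ascl3 and Foxi1, markers of duct progenitors and ionocytes, did not pass the filter on low counts, and Krt20 was listed at 0.

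Genes of ion and water transport included 3 rises among 12 tested (beside 0.754% of all tested genes), with a median log2 fold change of 1.07. Cftr, the chloride channel mutated in cystic fibrosis, was at 0.172 and 0.131 TPM in SFM, and at 8.72 TPM at P10 and 1.41 TPM at P25 in SCM (log2 fold change 4.41 ± 0.65, adjusted p = 0.0385, edgeR). Atp1b1, a subunit of the sodium pump, rose from 35.5 to 243.7 TPM and from 26.0 to 84.1 TPM. Scnn1a, a subunit of the epithelial sodium channel, went from 2.18 to 18.9 TPM at P10 and from 1.01 to 2.64 TPM at P25, which did not pass (adjusted p = 0.144, edgeR). The difference was larger at P10 than at P25 for each of Gabrp, Cftr, Atp1b1 and Scnn1a. The water channel Aqp5, listed with the acinar genes, was at 1.40 and 12.7 TPM in SFM and at 18.0 and 20.9 TPM in SCM (adjusted p = 0.382, edgeR). None of the 6 tested acinar genes was called, and the salivary amylase Amy1 was at 1.55 and 3.38 TPM at P10 and listed at 0 in both libraries at P25.

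Secreted proteins of mucosal defence moved both ways, with 1 rise and 1 fall among 6 tested genes (beside 0.754% and 0.276% of all tested genes). Ltf, the iron binding protein lactoferrin, rose from 4.44 to 236.3 TPM at P10. At P25 Ltf was at 0.0429 TPM in SFM and 0.813 TPM in SCM, on 1 and 7 counts, a ratio of 16.8 with a counting interval of 2.16 to 757.0. Slpi, the secretory leukocyte protease inhibitor (mm9 chr2:164179806-164182243), fell from 242.0 to 31.4 TPM at P10 and from 106.8 to 14.2 TPM at P25. The fall of Slpi had the same size at both passages, and its log2 fold change was -3.08 ± 0.24 (edgeR, adjusted p = 0.00475). Wfdc18, a small secreted protein with a whey acidic protein domain, rose from 49.6 to 2337 TPM at P10 and from 5.19 to 47.4 TPM at P25 (log2 fold change 4.54 ± 0.57, adjusted p = 0.0220, edgeR). Its relative Wfdc2 went from 428.4 to 1724 TPM and from 971.1 to 1711 TPM and was not called (adjusted p = 0.190, edgeR). Lcn2, the siderophore binding protein lipocalin 2, was at 258.5 and 334.1 TPM at P10 and at 10.6 and 6.72 TPM at P25, where the earlier passage was the higher in both media.

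Ceacam1, a cell adhesion molecule, and Cxcl17, a mucosal chemokine, were named after their values were seen because their rises rested mainly on P10. Cxcl17 had 19 counts in SFM and 1595 in SCM at P10, and 0 and 6 counts at P25. Ceacam1 had 50 and 1915 counts at P10 and 4 and 5 counts at P25, where the ratio of 3.0 had a counting interval of 0.646 to 15.1, and it was not called by DESeq2 (adjusted p = 0.212). Gprc5a, an orphan receptor of epithelia, had the larger difference at P25 instead, from 3.36 to 51.4 TPM at P10 and from 0.852 to 27.5 TPM at P25. The guidance and basement membrane proteins Ntn1 and Npnt also rose at both passages. Ntn1 was at 0.379 and 0.0615 TPM in SFM and at 12.7 and 6.22 TPM in SCM, and Npnt at 0.468 and 0.759 TPM against 23.7 and 18.9 TPM. The urea cycle enzyme gene Arg1 showed a like fold at unlike levels, from 121.0 to 768.3 TPM at P10 and from 1.27 to 8.84 TPM at P25 (log2 fold change 2.56 ± 0.24, adjusted p = 0.00942, edgeR).

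Of the retinoic acid list 17 genes were tested, 1 of which rose and 1 fell, with a median log2 fold change of 0.53 (0.65 at P10 and -0.07 at P25). Tgm2, the tissue transglutaminase that retinoic acid is known to induce, rose from 9.80 to 108.0 TPM at P10 and from 1.66 to 16.1 TPM at P25 (log2 fold change 3.23 ± 0.24, adjusted p = 0.00475, edgeR). Crabp1, which binds retinoic acid in the cytosol, fell from 473.6 to 41.6 TPM and from 18.4 to 3.44 TPM (log2 fold change -3.36 ± 0.33, adjusted p = 0.00989, edgeR). The level of Crabp1 in SCM at P10 was above that in SFM at P25, so the media overlapped across passages but not within them. Cyp26b1, which degrades retinoic acid, went from 0.314 to 2.22 TPM and from 0.170 to 5.19 TPM, and Dhrs3, which turns retinal back to retinol, from 10.8 to 42.0 TPM and from 4.52 to 14.4 TPM. Neither was called (adjusted p = 0.0726 and 0.0717, edgeR), while both were in DESeq2 (0.00142 and 0.0186). The receptors Rara, Rarg, Rxra and Rxrb lay within 0.57 log2 units of 0 at both passages, and Rarb did not pass the filter, at no more than 1.6 TPM.

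The lists for 3 other kinds of medium component had no called gene, beside 0.754% of all tested genes called higher and 0.276% called lower. At these shares a list this short can be without a call. An unadjusted p under 0.05 (edgeR) was seen for 7 of 13 glucocorticoid, 4 of 7 thyroid hormone and 3 of 10 iron and selenium genes. The retinoic acid list had 6 of 17, and all tested genes 1404 of 11938. None of 13 tested glucocorticoid responsive genes was called, with a median of -0.91, or -0.93 at P10 and -0.04 at P25. Tsc22d3, the glucocorticoid induced leucine zipper, was at 781.1 TPM at P10 in SFM and at 132.9 to 156.1 TPM in the other 3 libraries. Fkbp5, a chaperone of the glucocorticoid receptor that is induced by it, was at 207.8 and 98.6 TPM in SFM and at 119.2 and 110.6 TPM in SCM, and the receptor gene Nr3c1 differed by -0.04 and 0.68 log2 units. Of 7 thyroid hormone genes none was called, and Klf9, a target of the thyroid hormone receptors, was at 19.7 and 4.94 TPM in SFM and at 28.3 and 22.8 TPM in SCM (adjusted p = 0.313, edgeR), while the receptor Thra was at 22.2 to 35.2 TPM and Thrb at no more than 0.265 TPM. Among 10 iron and selenium genes none was called, and Tfrc, the transferrin receptor, went from 34.9 to 174.6 TPM and from 107.4 to 252.0 TPM (adjusted p = 0.0862, edgeR; 3.33e-05 in DESeq2). The ferritin genes Fth1 and Ftl1 had log2 fold changes of -0.47 and -0.61.

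Lists of lipid metabolism had few calls. Of 24 tested genes of sterol synthesis and uptake 1 fell and none rose, and the median was -0.10. None of 13 fatty acid synthesis genes was called, and the synthase Fasn, the carboxylase Acaca and the desaturase Scd1 had log2 fold changes of -0.18, 0.18 and -0.44.

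The falls included genes of signalling and of the matrix. Nradd, a death domain protein related to the neurotrophin receptor, fell from 65.7 to 11.0 TPM and from 98.1 to 3.28 TPM, with the larger difference at P25. Pdzrn4, a ubiquitin ligase with PDZ domains, fell from 7.26 to 0.480 TPM and from 5.33 to 0.372 TPM, by nearly the same fold at the 2 passages (log2 difference -3.81 and -3.74). Prkg2, a cyclic GMP dependent kinase, was at 56.1 and 124.6 TPM in SFM and at 10.9 and 13.9 TPM in SCM. The other called genes of this rank were Adora2b, an adenosine receptor (log2 fold change -2.67 ± 0.37), Rgs2, a regulator of G protein signalling (-2.89 ± 0.43), and Chst11, a chondroitin sulfotransferase (-3.13 ± 0.41). Among abundant genes, Lgals7, the keratinocyte galectin, fell from 264.0 to 59.0 TPM and from 1198 to 263.0 TPM, Serpine2, a thrombin inhibitor, from 287.4 to 94.7 TPM and from 269.3 to 48.5 TPM, and Vim, the intermediate filament of mesenchymal cells, from 353.8 to 134.2 TPM and from 311.3 to 131.8 TPM. For each of Prkg2, Serpine2 and Vim both SFM libraries lay well above both SCM libraries, while for Lgals7 the lower SFM library and the higher SCM library were level. Serpina3m and Serpina3n, near copies of a protease inhibitor whose reads the counting may have split, were also called (log2 fold changes -5.13 and -3.92), and Serpina3n had 0 counts in SCM at P25.

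Lists of other cell types showed few calls. Vim was the 1 fall among 8 tested mesenchymal genes, whose median was -1.25. Snai2, an epithelial to mesenchymal transition factor, went from 97.7 to 39.3 TPM and from 48.9 to 33.1 TPM without being called (adjusted p = 0.136, edgeR). Fn1, the matrix protein fibronectin, was at 262.7 to 456.2 TPM with no call, and the collagen gene Col1a1 was at no more than 0.555 TPM. Of 14 tested basal genes none was called and the median was -0.43. Krt5 went from 9214 to 3910 TPM at P10 and from 9386 to 2559 TPM at P25, with both SFM libraries above both SCM libraries, and missed the threshold (log2 fold change -1.71 ± 0.33, adjusted p = 0.0788, edgeR). It passed in voom and in DESeq2 (adjusted p = 1.01e-07). Its partner Krt14 had log2 differences of 0.19 and -0.96, and the basal regulator Trp63 of -0.63 and 0.22. Of 5 tested myoepithelial genes none was called, and Cnn1 was listed at 0 and Myh11 at no more than 0.164 TPM.

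Of 17 tested squamous genes 3 rose, namely Krt4, Krt13 and Sprr1a, beside 0.754% of all tested genes. Sprr1a, a cornified envelope precursor, went from 196.0 to 650.8 TPM and from 20 to 160.4 TPM (log2 fold change 2.19 ± 0.33, adjusted p = 0.0385, edgeR). The list's median was 0.47. Tgm1 and Dsc1, a transglutaminase of the cornified envelope and a desmosomal cadherin, were also 2-fold higher at both passages without being called (adjusted p = 0.141 and 0.217, edgeR), and 9 of the 17 were higher in SCM at both. Krt6a differed by 0.62 log2 units at P10 and by 0.00 at P25, Krt16 by 1.66 and -1.59 and involucrin (Ivl) by 0.78 and -1.63. Among 16 ephrin and Eph genes the ligand Efnb2 rose from 5.08 to 55.5 TPM and from 1.39 to 10.5 TPM (log2 fold change 3.05 ± 0.27, adjusted p = 0.00720, edgeR), and its relative Efnb1 and the receptor Epha2 were not called (-0.60 and 0.04). Among 12 genes of xenobiotic and oxidative stress responses Cyp1b1, a cytochrome P450 induced through the aryl hydrocarbon receptor, rose from 6.91 to 35.5 TPM and from 1.54 to 8.94 TPM (log2 fold change 2.29 ± 0.24, adjusted p = 0.0117, edgeR), while Nqo1 and Hmox1 had log2 fold changes of -1.16 and -0.33 and were not called.

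The lists of the cell cycle, of growth factor feedback, of immediate early, Notch, YAP and SRF and of interferon genes had no called member. The 27 cell cycle genes had a median of 0.26, which was 0.62 at P10 and 0.00 at P25. Mki67, a marker of cycling cells, was at 31.9 and 84.2 TPM in SFM and at 70.4 and 136.5 TPM in SCM (adjusted p = 0.273, edgeR), and Top2a and Ccnb1 had log2 fold changes of 0.69 and 0.44. For 19 genes of fibroblast growth factor and ERK feedback the median was -0.30, with Dusp6, Spry4 and Etv5, which ERK induces, at -0.46, -0.30 and -0.58. The 17 immediate early genes had a median of 0.10, with Fos, Egr1 and Ier2 at 0.58, 0.08 and 0.13. The 11 Notch genes had a median of -0.09, with Notch1, Jag1 and Hes1 at 0.18, -0.77 and 0.09. Of 13 targets of the YAP and SRF factors, Ctgf was at 96.3 and 1157 TPM at P10 and at 37.8 and 78.2 TPM at P25, with a log2 fold change of 2.19 (adjusted p = 0.206, edgeR), Cyr61 had differences of 1.27 and -0.93, and Ankrd1 did not pass the filter. The 21 interferon stimulated genes had a median of 0.66 at P10 and of -0.49 at P25, with none called.

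**Figure D3:**
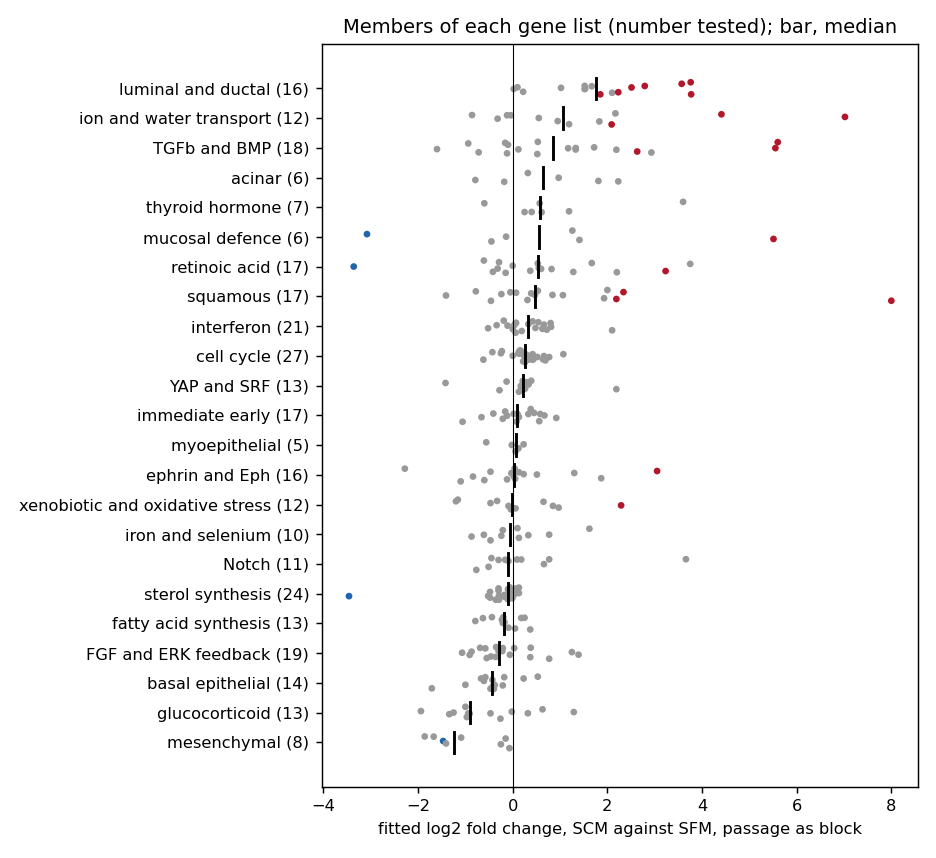
Fitted log2 fold changes between SCM and SFM, with passage as a block, are shown for the tested members of 23 gene lists, whose numbers stand in brackets. Red and blue points are members called higher and lower, black bars are list medians, and the lists run from luminal and ductal genes (median 1.76) to mesenchymal genes (-1.25). The lists were chosen with earlier results of these data known.

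Differences were then set side by side at the 2 passages, where no test is possible, with 1 library in each medium. At P10, 895 genes (7.5%) were at least 2-fold higher and 706 (5.91%) at least 2-fold lower in SCM. At P25, 526 (4.41%) were higher and 695 (5.82%) lower. The genes higher at both numbered 288, which is 32.2% of those higher at P10 and 54.8% of those higher at P25. Those lower at both numbered 231, or 32.7% of the P10 and 33.2% of the P25 genes. Opposite directions at 2-fold were seen for 103 genes, and over all tested genes 58.8% had the same sign at both passages. Across genes, which are not independent replicates, the differences at P10 and P25 had a Pearson r of 0.399. Called genes make up 89 of the 288 and 33 of the 231, so 199 genes that were 2-fold higher and 198 that were 2-fold lower at both passages did not pass the test. Among called genes the rises had medians of 2.85 at P10 and 2.49 at P25, the falls of -2.48 and -2.41, and the difference was the larger at P10 for 58 of 90 rises and 20 of 33 falls.

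Genes 2-fold apart at P10 and under 0.32 log2 units apart at P25 numbered 207 higher and 181 lower in SCM. The former included Foxj1, the master factor of motile cilia, at 3.20 TPM in SFM and 43.1 TPM in SCM at P10 and at 9.17 and 9.14 TPM at P25. Tspan13, a tetraspanin, was at 3.05 and 38.4 TPM at P10 and at 4.10 and 4.14 TPM at P25. Others of this kind were the chemokine Ccl9 (log2 difference 4.27 at P10 and -0.20 at P25), the antiviral synthetase Oas1a (3.73 and -0.13) and Cmtm8 (2.95 and 0.23). In SFM at P10 these genes were at most 3.20 TPM. The SFM library of P10 was the lowest of the 6 mSGc libraries for 135 of the 207 genes (65.2%, beside 19.6% of all tested genes), and the SCM library of P10 was the highest for 95 (45.9%, beside 25.4%). The genes were selected by the difference between these libraries, which favours both shares in advance, so they are a description only.

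Among the genes lower in SCM at P10 alone, 5 were named by the size of their difference. Ddit3, the stress transcription factor CHOP, was at 239.4 TPM in SFM and 41.0 TPM in SCM at P10, and at 13.8 and 17.9 TPM at P25. Trib3, a pseudokinase that CHOP induces, was at 233.0 and 32.7 TPM at P10 and at 22.2 and 28.6 TPM at P25. Cth, which makes cysteine from cystathionine, was at 158.4 and 24.6 TPM at P10 and at 57.4 and 61.9 TPM at P25. In each of the 3 the SFM library of P10 stood above the other 3 libraries, and it also stood above P2 and P4 in SFM (12.5 to 57.6 TPM). The mitochondrial thioesterase Acot2 (log2 difference -3.02 at P10 and -0.19 at P25) and Tsc22d3 (-2.45 and -0.04) had the same pattern. The selection of genes lower at P10 alone favours in advance that the SFM library of P10 stands highest. Over the 181 genes that library was the highest of the 6 mSGc libraries for 137 (75.7%, beside 18.0% of all tested genes). That library also had the lowest share of Rn45s, whose part in these differences was not tested.

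At P25 alone 77 genes were higher and 134 lower in SCM. Fam129a, a stress induced regulator of translation, was at 4.45 and 53.8 TPM at P25 and at 103.2 and 100 TPM at P10. Man1a2, a mannosidase of the Golgi, was at 24.3 and 77.7 TPM at P25 and at 64.7 and 78.9 TPM at P10, so that SFM at P25 was the library that stood apart for both genes. Lurap1, Ankrd35 and Entpd5 had log2 differences of 1.99, 1.77 and 1.55 at P25 and of 0.04, 0.31 and 0.27 at P10. Over the 77 genes, the SFM library of P25 was the lowest of 6 for 55 (71.4%, beside 27.3% of all tested genes), a share that their selection favours in advance. Sparc, a matrix protein of bone and connective tissue, was at 490.5 TPM in SFM and 47.1 TPM in SCM at P25, and at 64.7 and 62.1 TPM at P10. Fam5c was at 67 and 15.2 TPM at P25 and at 20 and 27.1 TPM at P10. Slitrk6, Fam167a and Limd2 had log2 differences of -3.79, -2.62 and -1.97 at P25 and of 0.16, -0.24 and 0.28 at P10. Over the 134 genes, the SCM library of P25, which is the shallowest, was the lowest of 6 for 115 (85.8%, beside 17.3% of all tested genes). Their selection favours this share in advance too.

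Of the 103 genes apart in opposite directions, 73 were higher in SCM at P10 and lower at P25. Acta2, the smooth muscle actin of myoepithelial cells, was at 7.86 TPM in SFM and 73.0 TPM in SCM at P10, and at 48.0 and 5.08 TPM at P25. Spp1, the secreted phosphoprotein osteopontin, was at 1.44 and 12.3 TPM at P10 and at 58.3 and 9.03 TPM at P25. For Spp1 the passages were far apart in SFM and close in SCM, whereas for Acta2 they were apart in both media, in opposite order. Il24, a cytokine of the interleukin 10 family, had log2 differences of 2.40 and -2.59, the keratin Krt6b of 2.44 and -1.84 and the interferon induced Ifi27l2a of 2.49 and -1.54. Krt6b is a near copy of Krt6a, between which the counting may have split reads. The other 30 genes were lower at P10 and higher at P25. Artn, a neurotrophic factor of the GDNF family, was at 19.3 and 2.98 TPM at P10 and at 0.811 and 13.2 TPM at P25. Slc7a11, the cystine transporter, was at 46.3 and 5.48 TPM at P10 and at 9.29 and 22.1 TPM at P25. Aldh1l2, a mitochondrial folate enzyme, the glycine transporter Slc6a9 and the imprinted zinc finger gene Peg3 had log2 differences of -3.73 and 1.89, -1.81 and 1.49, and -2.50 and 1.02.

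**Figure D4:**
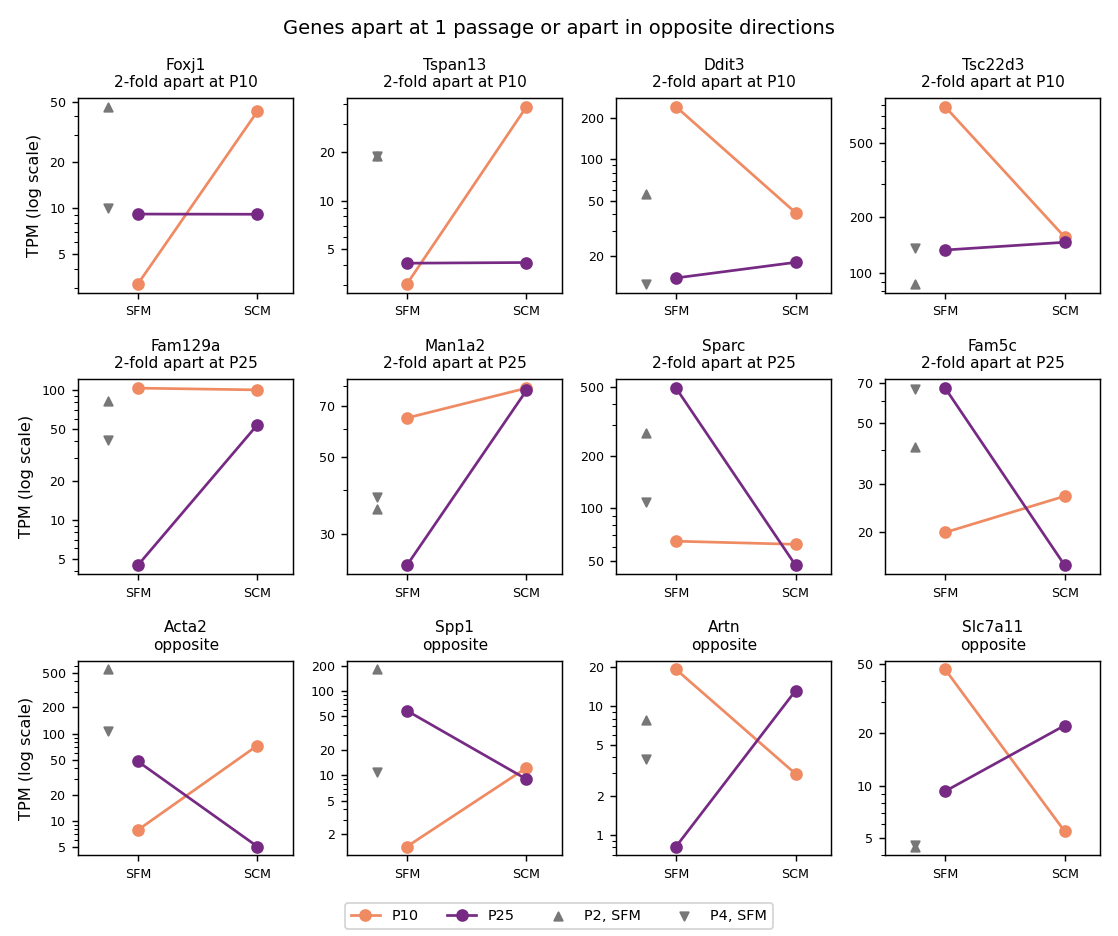
Levels of 12 genes are plotted in TPM on a log scale in SFM and SCM, with a line joining the 2 libraries of P10 (orange) or P25 (purple) and grey triangles for P2 and P4 in SFM. The upper rows show genes 2-fold apart at 1 passage and nearly level at the other, and the lowest row shows genes whose lines cross, such as Acta2.

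Whether the difference between the media itself differed with passage was tested as an interaction over the 6 mSGc libraries, with passage on the log2 scale. No gene was called in edgeR's quasi-likelihood test (0.0% of 12451 genes, smallest adjusted p 1.0), with 349 genes at an unadjusted p under 0.05. The slope in SFM is drawn from P2 to P25, so the test is not a direct contrast of P10 with P25. It cannot settle whether genes differ between those passages. On simulated data it recovered 38.8% of slopes of -2 and 49.0% of slopes of 2. Slopes of -4 and 4 were recovered at 98.0% and 95.9%. The simulation gave each gene the same expected level in all SFM libraries. In the data SFM levels could differ widely between passages, so these shares may not carry over. DESeq2 called 20 genes, 19 of them with a log2 difference (SCM over SFM) that fell with passage, and 405 genes had an unadjusted p under 0.05 in it. These 20 were named after their values were seen. They included Wfdc18, Cxcl17 and Ceacam1, called higher in SCM by edgeR above, with adjusted p of 0.00465, 0.00864 and 0.00575 in DESeq2, and Krt6b and Ifi27l2a, apart in opposite directions. Dclk1, a doublecortin-like kinase, was at 0.602 and 14.4 TPM at P10 and at 0.462 and 0.123 TPM at P25 (adjusted p = 2.94e-05, DESeq2). Cd200, an immune inhibitory surface protein, was at 45.7 and 132.0 TPM at P10 and at 4.96 and 1.76 TPM at P25 (adjusted p = 0.00186, DESeq2). Of the 20 genes, 8 were 2-fold higher at P10 and 2-fold lower at P25, 2 were apart at P10 alone, and 5 were higher at both.

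The early SFM libraries, which took no part in the fit, were set beside the called genes as a description, since the SFM levels at P10 and P25 had chosen these genes. Of the 90 genes called higher in SCM, 78 (86.7%) were higher at P2 in SFM than in both later SFM libraries, beside 41.7% of all tested genes, and 66 (73.3%) were so at P4, beside 27.2%. At P2 Wfdc18 was at 1606 TPM, between its 2 SCM libraries, Krt18 at 4548 TPM, above both, and Krt7 at 2074 TPM, below both. Krt4, Gabrp and Ppbp were at 3.10, 9.62 and 1.22 TPM at P2, below either SCM library. Of the 33 genes called lower, 18 (54.5%) were below both later SFM libraries at P2, beside 21.7%, and 17 (51.5%) at P4, beside 27.5%. Pdzrn4 was at 0.794 and 1.14 TPM at P2 and P4, below both later SFM libraries, whereas Vim, at 531.7 TPM at P2, was above both.

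By chromosome, one shift stood out at 1 passage. At P25 the 912 tested genes of chromosome 7 had a median log2 difference of -0.42, with 81.4% below 0, and the medians were -0.51, -0.34 and -0.39 in its 3 stretches of 304 genes. At P10 the same genes had a median of -0.02. Chromosome 7 held 105 of the genes 2-fold lower at P25 (11.5% of its tested genes, beside 5.35% of the genes elsewhere). It also held 26 of the 134 genes lower at P25 alone, beside 912 of all 11938 tested genes. Chromosomes 11 and 5 had medians of -0.21 and -0.19 at P25, and chromosome 14 one of 0.24 at P10, where 29.4% of its genes were below 0. Lgals7, a called fall on chromosome 7, had log2 differences of -2.27 at P10 and -2.36 at P25. Whether copy number moved with these shifts was not tested.

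**Figure D5:**
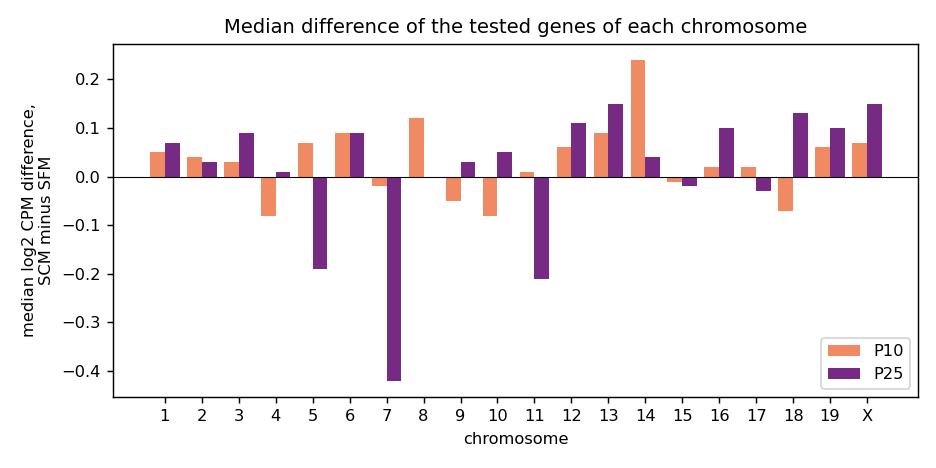
Bars give the median log2 CPM difference between SCM and SFM over the tested genes of each chromosome, at P10 (orange) and P25 (purple). Most medians lie within 0.15 of 0, and chromosome 7 at P25 lies lowest at -0.42.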

How the data were processed

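RNA from mSGc cells was sequenced at 4 passages, P10 and P25 in both media, and the counts of 3 IMOK libraries were deposited separately in the same series. The authors deposited raw read counts per gene with mm9 coordinates and gene lengths, and the submitters' processing notes name TopHat2 2.1.1, Bowtie2 2.2.6, featureCounts 1.5.1 and DESeq2 1.12.4. The annotation, strand setting and handling of multi-mapping reads are not given in the sources used here, so reads of near copies and of overlapping genes cannot be told apart. Libraries labelled progenitor were taken as SFM and those labelled differentiating as SCM, a match inferred from the published description of the media. Of 23366 entries, 27 were named by a date, carrying up to 0.195% of the counts in a library, and 4 shared a name with another entry.

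Genes were filtered by medium with filterByExpr, scaled by TMM (factors 0.953 to 1.04) and tested with edgeR 4.0.16 (quasi-likelihood, R 4.3.3), with passage as a block and Benjamini-Hochberg adjustment over all 11938 genes tested. Passage pairs the libraries because the labels give each passage in both media. The fit had 1 residual degree of freedom (prior 5.83, biological coefficient of variation 0.227). The interaction with log2 passage number used 6 libraries and 2 residual degrees of freedom. Differences at single passages are log2 CPM with a prior count of 2, without a test. TPM was computed from the deposited counts and lengths, and ratio intervals are exact at the 95% level and cover counting error only. Both fits were tested on simulated data. Alternatives were DESeq2 1.42.0, limma 3.58.1 (voom), other scalings, filters, prior counts and sets of libraries, and leaving out each library. Python 3.11.15, pandas 2.3.3, numpy 2.4.6 and scipy 1.17.1 were used.

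Genes were named by rule: up to 10 called genes per direction with the largest change and at least 5 TPM in both libraries of the higher medium, the 5 most abundant called genes per direction, called members and the first 3 members of each list, and, with at least 10 TPM, the 5 genes per kind with the largest change at 1 passage or the largest gap between opposite changes. Other list members, and genes called by DESeq2 in the interaction, were named after their values were seen. The comparison, the members and the 24 lists were chosen with earlier results of these data known. A few genes that the rule selects are not reported here.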

Additional observations from a re-analysis of the deposited data

Results flagged for a closer look

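Genes whose difference between the media ran in opposite directions at the 2 passages were singled out, with 1 library in each medium at each passage, so that the difference was not tested at this level, and none was called in the interaction test of edgeR. The gap is the log2 difference (SCM over SFM) at P10 minus that at P25. Among genes higher in SCM at P10 and lower at P25, the gap was 6.44 for Acta2, 5.62 for Spp1, 4.99 for Il24, 4.28 for Krt6b and 4.03 for Ifi27l2a. Of these, Krt6b and Ifi27l2a passed the interaction test of DESeq2, with adjusted p of 0.00465 and 0.023. Among genes lower in SCM at P10 and higher at P25, the gap was -6.38 for Artn, -5.63 for Aldh1l2, -4.27 for Slc7a11, -3.51 for Peg3 and -3.30 for Slc6a9. Acta2 was at 544.4 TPM at P2 and 105.9 TPM at P4 in SFM, above all 4 later libraries.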

How the results depend on the processing

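The number of genes called depended on the fit. Against 90 higher and 33 lower, DESeq2 called 211 and 92, and no filter on low counts gave 346 and 177. The fit with no replicate block (medium alone) gave 0 and 0, with 469 genes at an unadjusted p under 0.05, the 6 mSGc libraries 3 and 0, and all 9 libraries, with the spread taken from IMOK, 0 and 0, with 658. Leaving out each library in turn, which also drops the passage term and assumes that the lone library varies like the other medium, gave 0 to 2 higher and 0 to 0 lower in edgeR, with 272 to 629 genes at an unadjusted p under 0.05. Counts with voom, without TMM factors, with 10 counts in each library and with a log2 fold change of at least 1 were within 1.5 times. With 10 counts in each library the set changed more than its size. Only 85 of the 123 called genes were tested there, and all 85 were called, as 60 of its 108 rises and 25 of its 47 falls. Krt4, Gabrp, Ppbp, Msln, Id1 and Id2, with under 10 counts in a library, were not tested there. All 123 called genes kept their direction in each of these fits that tested them, other than those leaving out a library, for which direction was not counted, and 121 were also called by DESeq2 and 122 by voom. The interaction gave 20 genes in DESeq2 and 0 in edgeR without TMM factors, without a filter and with 9 libraries (336, 512 and 209 at an unadjusted p under 0.05). With 10 counts in each library, which tests fewer genes, 576 genes were 2-fold higher and 440 lower at P10, 349 and 341 at P25, 174 and 102 at both, and 37 opposite. At 4-fold the counts were 305 and 147, 144 and 180, 85 and 46, and 10. Apart from fewer genes or libraries in a fit, the cause of these changes was not tested. At 6237884 counts, P25 in SCM limits low genes most.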
